A study of Mus musculus with 9 samples.

Results

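The miR-16 family was followed in extracellular vesicle (EV) small RNA of bronchoalveolar lavage fluid (BALF), through all entries of the 6 hairpins mir-15a, mir-15b, mir-16-1, mir-16-2, mir-195 and mir-497. Members were chosen by hairpin name and not by any value, though earlier results of these data were then known. The family held 26 of the 1308 entries, from 6 of 299 hairpins: 11 unsuffixed mature entries, listed by arm and genomic copy, and 15 isomiRs, whose suffix gives a shift of the 5′ end. The mice were female C57BL/6J, 8 to 10 weeks old, exposed once for 3 hours to filtered air (FA) or to O3 at 1 or 2 ppm, and BALF was taken 21 hours afterwards. EV RNA was isolated and sequenced from 3 pools per exposure, each of 4 mice for FA and of 3 mice for either O3 concentration, so pool size and O3 cannot be told apart. The paper lists 1 exposure run for each O3 concentration, so run and O3 cannot be told apart either. Levels are RPMMM, in which the miRNA reads of every pool add up to an equal total. They are thus shares, and fewer EVs from a cell type and less of a miRNA per EV cannot be told apart in them.

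A miRNA precursor is a hairpin whose arms, 5p and 3p, are cut out as a duplex. Usually the strand from 1 arm is kept in the silencing complex, and the strand from the other arm is degraded. Targets are found mainly through the seed near the 5′ end, so miRNAs with the same seed are grouped into families with overlapping targets. The 5p strands of the miR-15/16 family are known for restraining the cell cycle through cyclins and for targeting Bcl2, an inhibitor of apoptosis. The mir-15a and mir-16-1 locus is deleted in many chronic lymphocytic leukaemias. miR-16 is abundant in most tissues and in red blood cells.

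The 5p strands are shown first, because their seed defines the family. The mature sequences are those of RefSeq for GRCm38.p6, in which all 11 mature names were found, and capitals mark the seed, bases 2 to 8.
miR-15a-5p: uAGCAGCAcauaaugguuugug
miR-15b-5p: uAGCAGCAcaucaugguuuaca
miR-16-5p: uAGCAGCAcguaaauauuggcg
miR-195a-5p: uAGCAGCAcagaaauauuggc
miR-497a-5p: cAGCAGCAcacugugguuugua
All 5 carried the seed AGCAGCA. miR-16-5p is the product of both mir-16 copies, and it had 2 exact matches in mm9, against 1 for each of the other mature sequences. miR-195a-5p differed from it at 2 of 21 aligned positions, both after the seed, whereas miR-15b-5p differed at 8 of 22 and miR-497a-5p at 11 of 22.

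The 3p strands are shown because the arms of mir-16-1 are compared in these data and because their seeds, also in capitals, are not that of the 5p strands.
miR-16-1-3p: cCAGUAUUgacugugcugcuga
miR-16-2-3p: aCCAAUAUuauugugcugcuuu
miR-15a-3p: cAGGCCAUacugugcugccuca
miR-15b-3p: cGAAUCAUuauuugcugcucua
miR-195a-3p: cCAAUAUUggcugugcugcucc
The 3p strands of the mir-16 copies differed at 10 of 22 positions, so that, unlike their shared 5p strand, each 3p strand names its copy. The closest 3p pair was miR-16-1-3p and miR-195a-3p, which differed at 4 of 22 positions.

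The hairpins lie in 3 pairs in mm9. The mir-16-1 hairpin at chr14:62250717-62250809 and the mir-15a hairpin at chr14:62250864-62250947 are 54 bases apart on the minus strand, in an intron of the long noncoding RNA gene Dleu2. The mir-15b hairpin at chr3:68813678-68813775 and the mir-16-2 hairpin at chr3:68813824-68813918 are 48 bases apart, also within an intron, here of Smc4 and on its plus strand, which encodes a condensin subunit. The mir-497 hairpin at chr11:70048219-70048302 and the mir-195 hairpin at chr11:70048544-70048637 are 241 bases apart on the plus strand and overlap no other annotated gene.

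The family made up 0.435% ± 0.0683 of the miRNA reads in FA, 0.459% ± 0.0145 after 1 ppm O3 and 0.316% ± 0.0380 after 2 ppm O3 (SD, n = 3 pools). Summed over the 26 entries, the level was 5098, 3762 and 4181 RPMMM in the FA pools, 4611, 4435 and 4723 RPMMM after 1 ppm O3, and 3237, 2750 and 3499 RPMMM after 2 ppm O3. The 2 ppm pools were below all others, and the 1 ppm pools lay within the range of FA. This order rests on the scaling to all miRNA reads: with pools scaled by the median ratio of their entries the group means were 3623, 4060 and 4275 RPMMM for FA, 1 ppm and 2 ppm. With a total that leaves out mir-2137 and 4 other hairpins (mir-5115, mir-5109, mir-5105 and mir-5102), the means were 4374, 4992 and 5765 RPMMM, so the 2 ppm group turned from lowest to highest under both. The hairpins left out of this total were set by name and held more of the reads at 2 ppm than in FA. Leaving them out therefore raises all other entries most at 2 ppm: the family mean went from 4347 to 4374 RPMMM in FA and from 3162 to 5765 RPMMM at 2 ppm. The direction of this shift was thus built into that total. Shares within the family do not depend on this scaling. miR-16-5p, both copies and their isomiRs together, made up 74.7% ± 3.21 of the family in FA, 84.9% ± 4.44 after 1 ppm O3 and 82.0% ± 2.92 after 2 ppm O3, and the mir-15b hairpin made up 13.3% ± 2.43, 9.96% ± 3.61 and 9.05% ± 2.06. All 3p arms together made up 9.63% ± 2.85 of the family in FA, 2.60% ± 0.383 after 1 ppm O3 and 4.78% ± 0.582 after 2 ppm O3, with no overlap between the exposures. By group means most of this was mir-16-1-3p, with 333 of 409 RPMMM in FA, 72.1 of 119 RPMMM after 1 ppm O3 and all of the 151 RPMMM after 2 ppm O3. In 1 ppm pool 3 mir-16-1-3p was below miR-15b-3p, at 33.7 against 90.6 RPMMM. miR-15b-3p did not share the order of mir-16-1-3p, with 24.4 ± 24.3 RPMMM in FA and 40.4 ± 46.1 RPMMM after 1 ppm O3, and was not tested.

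**Figure D1:**
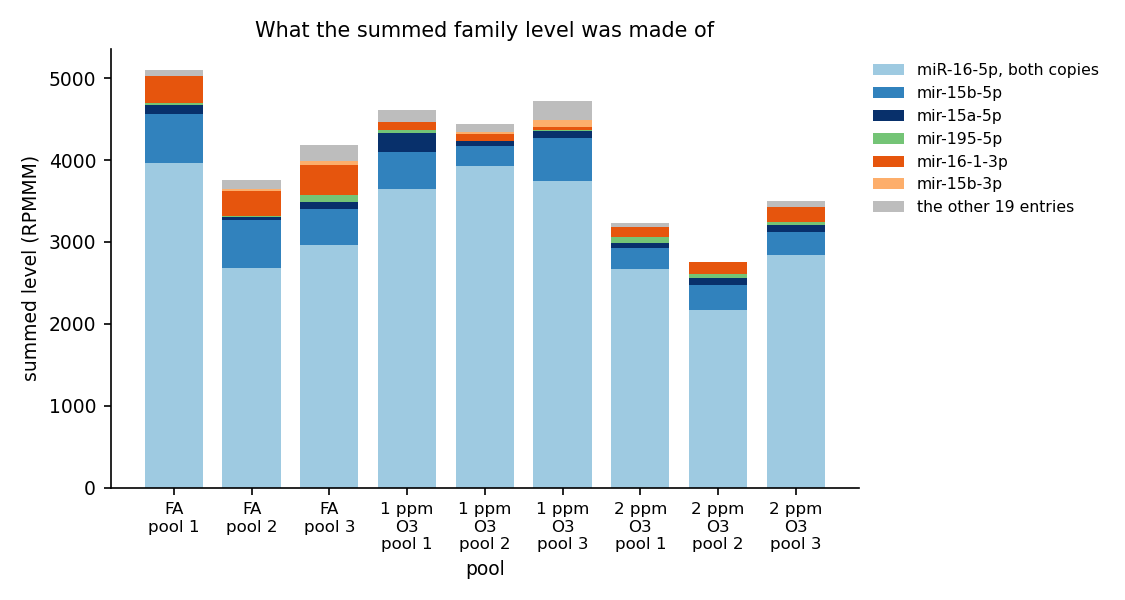
Summed level of the family (RPMMM, bars from 0) in each of the 9 pools, stacked by entry. miR-16-5p fills most of every bar, and the segment of mir-16-1-3p is widest in the FA pools, where it is between 296 and 370 RPMMM.

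Differential expression (DE) required an adjusted p below 0.05 from limma and a fold change of at least 2. Of the 461 entries that averaged more than 50 RPMMM and entered the fit, 5 were of the family. All 5 averaged more than this in every exposure. After 1 ppm O3, 1 of the 5 was DE compared with FA, against 13.2% of all tested entries. That entry, mir-16-1-3p, was lower, as were 2.82% of all tested entries. None of the 5 was DE after 2 ppm O3 compared with FA, against 43.6% of all entries and 29.3% that were DE and lower, and none was DE between 2 ppm and 1 ppm O3, against 33.6% of all entries. At an unadjusted p below 0.05 from limma, 1, 2 and 3 of the 5 differed in these comparisons, beside 126, 276 and 247 of all 461 entries. The 3 between 2 ppm and 1 ppm O3 were mir-16-1-3p and both copies of miR-16-5p, which share reads and are not separate results. The median log2 fold change of the 5 was 0.25, -0.34 and -0.46, beside -0.08, -0.83 and -0.69 over all 461 entries. This median counts miR-16-5p once for each copy, and its first 2 values are those of mir-16-2-5p. At 1 ppm the other entries were at 0.26 (mir-16-1-5p), 0.62 (mir-15a-5p), -0.47 (mir-15b-5p) and -2.33 (mir-16-1-3p). The median at 1 ppm is therefore no sign of a rise of the family.

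The entries of the guide strand miR-16-5p were the highest of the family and stood at places 83, 76 and 95 of all entries by mean level in FA, 1 ppm and 2 ppm O3 for the mir-16-1 copy. These places are those of 1 copy and understate the strand, whose copies together averaged 3204, 3773 and 2558 RPMMM. mir-16-1-5p was at 1993, 1340 and 1466 RPMMM in the FA pools, 1835, 1970 and 1863 RPMMM after 1 ppm O3, and 1381, 1095 and 1426 RPMMM after 2 ppm O3. The 1 ppm pools lay close together inside the range of FA, and the 2 ppm pools lay below every 1 ppm pool and overlapped with FA. The log2 fold change was 0.26 at 1 ppm (95% interval -0.13 to 0.65, limma adjusted p = 0.428) and -0.29 at 2 ppm compared with FA (-0.68 to 0.10, adjusted p = 0.179 from limma). Between 2 ppm and 1 ppm O3 it was -0.55 (-0.94 to -0.16), with an adjusted p of 0.0320 from limma and a fold change under 2. The difference between the O3 concentrations and that between 2 ppm and FA turned sign under both other scalings named above, to 0.07 and 0.20 for 2 ppm against 1 ppm and to 0.41 and 0.57 for 2 ppm against FA. With the total without mir-2137 alone, 2 ppm against 1 ppm stayed negative at -0.29, and 2 ppm against FA was 0.02.

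mir-16-2-5p differed little from mir-16-1-5p, as the mature strand matches both copies exactly, though not every read was split evenly between them. In reads, estimated from the step of 1 read in each pool, the copies differed by 2.00 to 28.0 reads, at most 7.23% of the lower copy. The summed reads of both copies lay within 0.0120 of a whole read in 9 of 9 pools, although the single copies often did not, as with 1102.5 and 1090.5 reads in 1 ppm pool 1. The copies are therefore not independent measurements. For mir-16-2-5p the log2 fold changes were 0.25 and -0.34 compared with FA (limma adjusted p = 0.442 and 0.111) and -0.59 between 2 ppm and 1 ppm O3 (limma adjusted p = 0.0206, fold change under 2). Both negative values turned sign under the same 2 scalings. With the total without mir-2137 alone they stayed negative, at -0.03 and -0.34.

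miR-15b-5p was the second most abundant strand of the family. It was at 600.3, 579 and 439 RPMMM in the FA pools, 446, 249 and 514 RPMMM after 1 ppm O3, and 256, 314 and 274 RPMMM after 2 ppm O3. All 2 ppm pools were below all FA pools, while the 1 ppm pools spread over both ranges. The log2 fold change was -0.47 at 1 ppm (95% interval -1.14 to 0.19, limma adjusted p = 0.393) and -0.93 at 2 ppm (-1.59 to -0.26, adjusted p = 0.0244 from limma), a fold change of 1.90, which does not reach 2. The 2 ppm value is close to the median of all entries, -0.83, and was -0.23 and -0.07 under the same 2 other scalings. With the total without mir-2137 alone the 2 ppm value was -0.62. miR-15b-5p was DE at 2 ppm when FA pool 3 was left out (log2 fold change -1.07, limma adjusted p = 0.0269) or 2 ppm pool 2 (-1.01, limma adjusted p = 0.0393).

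miR-15a-5p, from the same Dleu2 intron as miR-16-1, was at 108, 40.1 and 80.3 RPMMM in the FA pools, 238, 61.3 and 87.1 RPMMM after 1 ppm O3, and 66.5, 86.4 and 88.8 RPMMM after 2 ppm O3. The exposures overlapped, and pool 1 of 1 ppm O3 was far above the other pools of that group. The log2 fold changes were 0.62, 0.18 and -0.44 in the 3 comparisons, with adjusted p between 0.571 and 0.814 from limma. Their intervals were wide, from -0.79 to 2.03 at 1 ppm and from -1.23 to 1.59 at 2 ppm compared with FA.

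**Figure D2:**
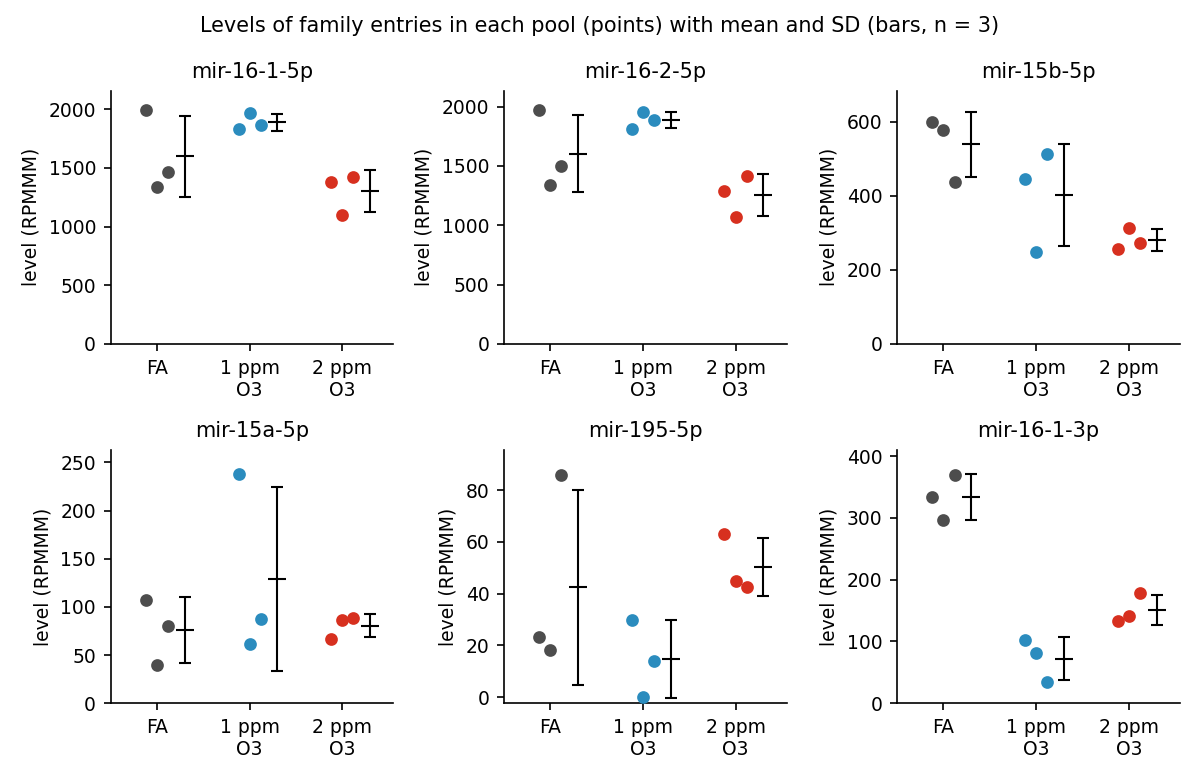
Level (RPMMM, linear axis) of 6 family entries in each pool (points), with the mean and SD of the 3 pools of an exposure (bars). The FA pools of mir-16-1-3p lie above all O3 pools, whereas in mir-16-1-5p and mir-16-2-5p the 1 ppm pools lie within the range of FA.

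mir-16-1-3p, the less abundant strand of its hairpin, was the family entry that was DE. It was at 335, 296 and 370 RPMMM in the FA pools, 102, 81.1 and 33.7 RPMMM after 1 ppm O3, and 133, 142 and 178 RPMMM after 2 ppm O3. These levels correspond to 258, 229 and 198 reads, 61, 45 and 29 reads, and 40, 41 and 50 reads. The exposures did not overlap: FA was highest, 1 ppm lowest, and 2 ppm in between. The log2 fold change was -2.33 ± 0.44 (SE) at 1 ppm compared with FA, 5.02-fold lower (95% interval of the log2 value -3.33 to -1.33, limma adjusted p = 0.00548), and it was called under each of the 19 alternatives in which it was tested. At 2 ppm it was -1.15 compared with FA (-2.14 to -0.15), with an adjusted p of 0.0527 from limma. Between 2 ppm and 1 ppm O3 it was 1.18 (0.19 to 2.18, limma adjusted p = 0.0543). Over the alternatives the adjusted p at 2 ppm compared with FA lay between 0.00755 and 0.655, on both sides of the threshold. With median-ratio scaling and with the total without mir-2137 and 4 hairpins, the change at 2 ppm was -0.45 and -0.29 compared with FA, and 1.79 and 1.93 compared with 1 ppm, where it was DE (limma adjusted p = 0.0128 and 0.0122).

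**Figure D3:**
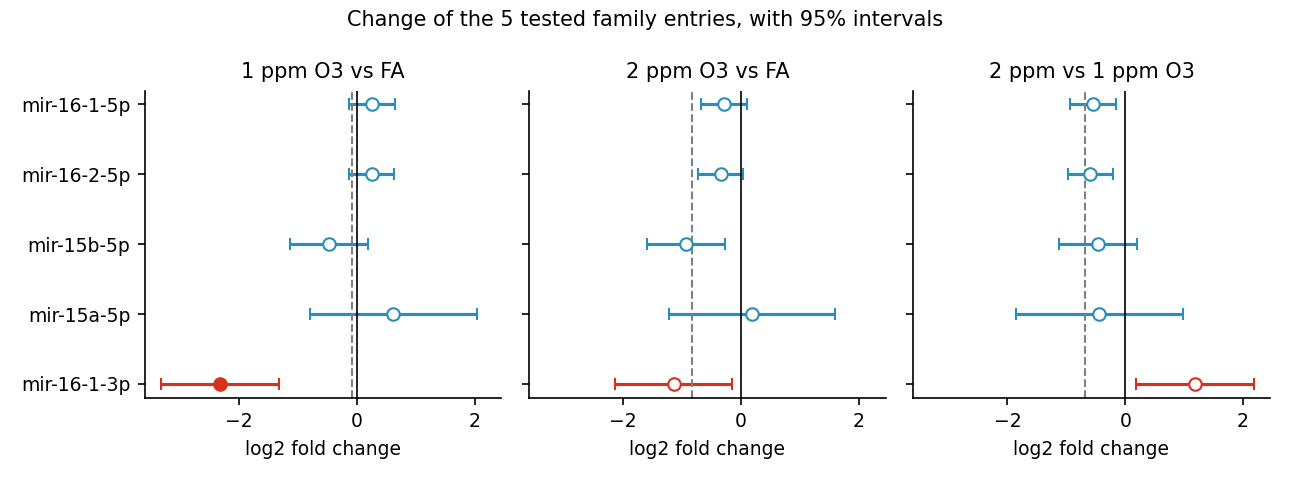
Log2 fold change with its 95% interval from limma for the 5 tested family entries (blue for 5p, red for 3p, filled where DE) in the 3 comparisons; the dashed line is the median of all 461 tested entries. At 1 ppm mir-16-1-3p is at -2.33 while the 4 entries of 5p strands lie between -0.47 and 0.62.

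The arms of the same hairpin were then compared with each other, since this ratio does not depend on how the pools were scaled. For mir-16-1 the 5p side is not that of its hairpin alone, as miR-16-5p reads come from both mir-16 copies. A change between the arms of mir-16-1 and a change in the output of mir-16-2 therefore cannot be told apart in this ratio. As a share of the mir-16-1-3p and miR-16-5p reads, mir-16-1-3p was at 7.79%, 9.94% and 11.1% in the FA pools, 2.71%, 2.03% and 0.890% after 1 ppm O3, and 4.74%, 6.15% and 5.88% after 2 ppm O3. The group means were 9.60% ± 1.67, 1.87% ± 0.917 and 5.59% ± 0.745 (SD, n = 3). The 95% Wilson intervals, which cover counting error only, ran from 6.92% to 12.6% over the FA pools, from 0.621% to 3.46% over the 1 ppm pools and from 3.50% to 8.23% over the 2 ppm pools. The 1 ppm intervals touched no FA interval. Some FA and 2 ppm intervals overlapped.

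**Figure D4:**
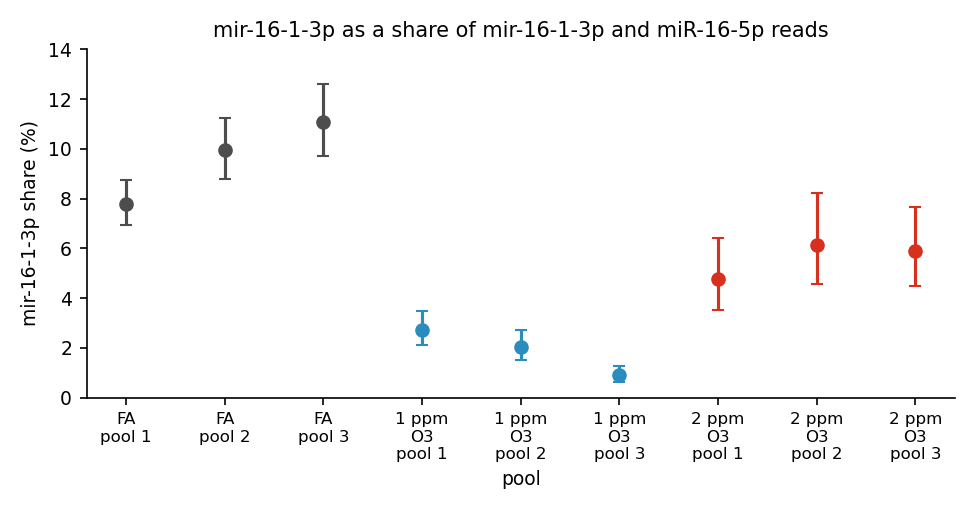
mir-16-1-3p as a percentage of mir-16-1-3p and miR-16-5p reads in each pool, with 95% Wilson intervals (counting error only). The 1 ppm pools are between 0.890% and 2.71%, below the 2 ppm pools and the FA pools.

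With limma over the 67 hairpins whose arms each had a mean above 50 RPMMM, isomiRs included, the log2 ratio of 3p to 5p of mir-16-1 was lower by 2.66 at 1 ppm compared with FA (-2.66 ± 0.57 SE, 95% interval -3.95 to -1.38, limma adjusted p = 0.0235). It was 1 of 4 hairpins with a changed ratio at 1 ppm, 5.97% of the 67, and it was at place 4 from the lowest change. The others, named after their values were seen, were mir-30d, also lower at -1.96, and mir-200b and mir-23b, higher at 1.12 and 1.16. At 2 ppm the change compared with FA was -0.90 (-2.19 to 0.38, limma adjusted p = 0.342), and between 2 ppm and 1 ppm O3 it was 1.76 (0.47 to 3.05, limma adjusted p = 0.0957). Neither passed the threshold, nor did mir-16-1 belong to the 5.97% of hairpins called in each of these comparisons. The call at 1 ppm was lost without FA pool 3 (log2 change -2.57, limma adjusted p = 0.112), without 2 ppm pool 3 (-2.66, adjusted p = 0.0542) and when hairpins down to a mean of 20 RPMMM were included (-2.66, adjusted p = 0.0518), while the size of the change stayed between -2.99 and -2.20 in all 14 alternatives. Set against the 5p reads of both copies, the change was -2.66 (limma adjusted p = 0.0168), which does not separate the copies either.

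**Figure D5:**
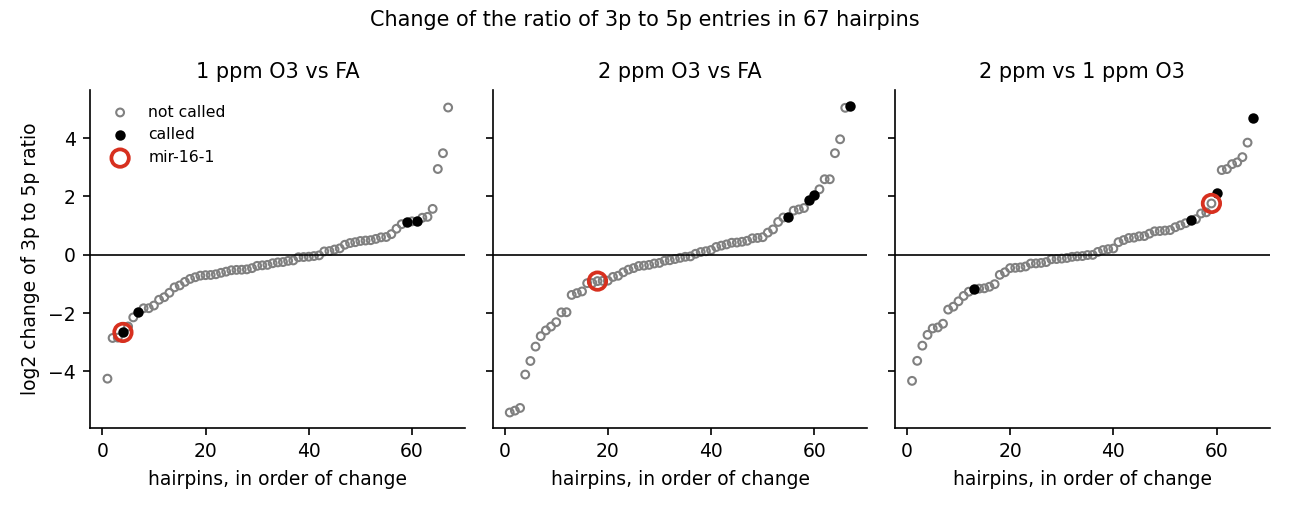
Log2 change of the ratio of 3p to 5p entries in 67 hairpins, in order of the change, for the 3 comparisons (filled, called; open, not called; red ring, mir-16-1). At 1 ppm mir-16-1 is called at -2.66, and at 2 ppm compared with FA it is not called at -0.90.

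The other 3p strands were near the lower end of what the table lists. No value above 0 in any pool lay below about 10 reads, so a 0 stands for fewer reads than that minimum and not for absence. mir-16-2-3p was at 56.0 RPMMM in FA pool 3 and 19.8 RPMMM in 1 ppm pool 2 and listed at 0 in the other pools. miR-15b-3p was above 0 in 4 pools, at 24.6 and 48.6 RPMMM in FA pools 2 and 3 and at 30.6 and 90.6 RPMMM in 1 ppm pools 2 and 3. miR-15a-3p was listed only in FA pool 2 and miR-195a-3p only in FA pool 3, at 22.0 and 35.5 RPMMM, and no entry of miR-497a-3p was found. Of the 3p entries outside mir-16-1, none was above 0 in any 2 ppm pool, but these pools had between 281539 and 300915 miRNA reads, against between 535534 and 860960 in the other pools. In the 2 ppm pools 1 read was worth between 3.32 and 3.55 RPMMM. The part of depth in these zeros was not tested. For mir-15b, which could be compared once hairpins down to a mean of 20 RPMMM were included, the log2 change of the arm ratio at 1 ppm had an interval from -3.79 to 5.45 (limma adjusted p = 0.882).

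mir-195 and mir-497, the pair on chromosome 11, were scarce. miR-195-5p, whose sequence is the nearest to miR-16-5p, was at 23.3, 18.1 and 85.9 RPMMM in the FA pools, 30.0, 0 and 13.9 RPMMM after 1 ppm O3, and 63.1, 44.9 and 42.6 RPMMM after 2 ppm O3. Its mean of 35.8 RPMMM was below the filter and it was not tested. The 2 ppm pools were above the 1 ppm pools, and FA spread over both because of pool 3. miR-497-5p was listed in 1 ppm pool 3 only, at 15.1 RPMMM.

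In all, 21 of the 26 entries did not pass the filter, 6 unsuffixed entries and all 15 isomiRs. Their values above 0 ran from 13.9 to 90.6 RPMMM, and 12 of the 21 were above 0 in a single pool. Of the isomiRs, 11 carried a plus and 4 a minus suffix. By their mean over all 9 pools, the highest were the plus 1 isomiRs of miR-16-5p, equal for both copies, with 24.3 ± 13.0 RPMMM in FA, 39.7 ± 4.09 RPMMM after 1 ppm O3 and 12.4 ± 21.5 RPMMM after 2 ppm O3. The highest value of an isomiR in any pool was 49.9 RPMMM, for the minus 1 isomiR of mir-16-2-5p in 2 ppm pool 1. All isomiRs of miR-16-5p together made up 1.40% ± 0.611, 2.63% ± 0.942 and 1.22% ± 1.10 of the family. No family arm had shifted isomiRs with a summed mean above 50 RPMMM on 1 copy, so the ratio of shifted to unshifted entries was not tested.

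Of the other mature miRNAs in RefSeq with the seed AGCAGCA, 5 in number, only miR-322-5p had entries. It is shown with miR-503-5p, which comes from the same cluster on chromosome X and is counted in the extended family.
miR-322-5p: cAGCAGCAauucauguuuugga
miR-503-5p: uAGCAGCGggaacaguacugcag
miR-322-5p was at 106, 34.9 and 93.4 RPMMM in the FA pools, 59.9, 37.8 and 22.1 RPMMM after 1 ppm O3, and 49.9, 0 and 53.3 RPMMM after 2 ppm O3. The exposures overlapped, and its log2 fold changes of -0.91 and -2.35 compared with FA had adjusted p of 0.806 and 0.197 from limma. The 3p arm of mir-322 had 3 tested entries, and the differences between them were not tested. The unsuffixed mir-322-3p was at 309, 268 and 368 RPMMM in the FA pools, 820, 726 and 508 RPMMM after 1 ppm O3, and 226, 211 and 181 RPMMM after 2 ppm O3. It was DE and higher at 1 ppm, with a log2 fold change of 1.10 ± 0.25 (SE, limma adjusted p = 0.0161), and DE and lower at 2 ppm than at 1 ppm, with -1.71 (limma adjusted p = 0.000565). Its minus 2 isomiR, with 402, 376 and 74.1 RPMMM on average in FA, 1 ppm and 2 ppm O3, was not DE at 1 ppm (log2 fold change -0.07, limma adjusted p = 0.959) and was DE and lower at 2 ppm compared with FA (-2.52, limma adjusted p = 0.000590). The minus 1 isomiR was at -0.20 at 1 ppm (limma adjusted p = 0.862). With isomiRs summed, the log2 change of the 3p to 5p ratio of mir-322 at 1 ppm was 1.57 (limma adjusted p = 0.648), which was not called. miR-503-5p was above 0 in 6 pools, up to 115 RPMMM, and was not tested.

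Across the 9 pools, the level of mir-16-1-3p did not follow that of its 5p strand. The Pearson correlation of log2(RPMMM + 1) was -0.32 between mir-16-1-3p and mir-16-1-5p, 0.28 between mir-15b-5p and mir-16-1-5p, and 0.99 between the copies of miR-16-5p, over pools that share exposures and the scaling. Of 212 mature miRNAs of other hairpins, those most like mir-16-1-5p were mir-140-3p (r = 0.87), mir-23a-5p (0.84), mir-30d-5p (0.84), mir-186-5p (0.82) and mir-30a-5p (0.81). Those most like mir-16-1-3p were mir-378-3p (r = 0.91), mir-320-3p (0.90), mir-34c-3p (0.87), mir-708-3p (0.86) and mir-205-5p (0.83). The latter were picked for their correlation over the same pools, so an order of exposures shared with mir-16-1-3p is no separate result. All of them had this order of means, mir-378-3p with 29620 ± 6030 RPMMM in FA, 4367 ± 1020 RPMMM after 1 ppm O3 and 13041 ± 996 RPMMM after 2 ppm O3. No list of most similar miRNAs shared a name with the other.

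Marker miRNAs of other cell types moved with some of these values. The red blood cell list (mir-451, mir-144 and mir-486, 3 of 3 hairpins in the table) summed to between 884 and 1822 RPMMM in FA, between 150 and 343 RPMMM after 1 ppm O3 and between 158 and 948 RPMMM after 2 ppm O3. Its order of means, FA, 2 ppm and 1 ppm, was that of mir-16-1-3p. The unsuffixed entries of mir-144 were listed at 0 in all O3 pools, but also in FA pool 2, and reached at most 35.5 RPMMM in FA. mir-451 was at 372, 438 and 984 RPMMM in the FA pools and 73.2, 121 and 94.1 RPMMM after 1 ppm O3, with a log2 fold change of -2.52 (limma adjusted p = 0.0298). mir-486-5p had a log2 fold change of -1.93 at 1 ppm compared with FA (limma adjusted p = 0.0644) and was not DE. In the same comparison miR-16-5p, a miRNA of red blood cells, had a log2 fold change of 0.26. The part of red blood cell EVs in the fall of mir-16-1-3p was not tested. The striated muscle list was at 6029 RPMMM in FA pool 3, against at most 1168 RPMMM in any other pool. This is the FA pool with the highest level of mir-16-1-3p and miR-195-5p, and the only pool that listed miR-195a-3p. With this pool left out, mir-16-1-3p was DE at 1 ppm, with a log2 fold change of -2.25 (limma adjusted p = 0.0223). The change of the arm ratio of mir-16-1 at 1 ppm was then not called (-2.57, limma adjusted p = 0.112). Over all alternatives the log2 fold change of mir-16-1-3p at 1 ppm lay between -2.64 and -1.86. The part of muscle EVs in these values was not tested. The other lists were the myeloid leukocyte list, with means of 1730, 2161 and 1349 RPMMM in FA, 1 ppm and 2 ppm O3, the epithelial list, with 66580, 53040 and 27756 RPMMM, the list of smooth muscle and fibroblasts, with 7538, 7438 and 5890 RPMMM, and the endothelial list, with 196, 626 and 859 RPMMM. The lymphocyte marker mir-150 was above 0 in 1 pool.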

How the data were processed

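The values deposited by the authors are RPMMM, an RPM of miRNA reads, from their miRquant 2.0 pipeline, which removed adapters, mapped to mm9 and listed isomiRs apart. Low values on steps of 1 read gave between 281539 and 860960 miRNA reads per pool, lowest after 2 ppm O3. Only 66.6% to 79.5% of low values were whole reads (within 0.03 of a read), so no count test was run. Group means were fitted to log2(RPMMM + 1) by limma 3.58.1 (R 4.3.3), its variances moderated along a trend with the level, and Benjamini-Hochberg adjustment ran over all 461 tested entries or 67 hairpins. Fold changes on this scale understate those of low entries that are above 0 in all pools. A value listed at 0 enters as 1 RPMMM and can instead overstate them. miR-322-5p, at 0 in 2 ppm pool 2, had a log2 fold change of -2.35 at 2 ppm compared with FA. Its means were 78.2 RPMMM in FA and 34.4 RPMMM after 2 ppm O3. The thresholds for DE are those of the study, whose sequencing test is not given in the sources used here. Both fits were tested on simulated data. Arms were compared as the log2 ratio of their summed entries, each with 1 RPMMM added. Hairpins were placed by exact matches of RefSeq mature sequences in mm9, with GENCODE vM1 genes. Values and figures were made with Python 3.11.15, pandas 2.3.3, scipy 1.17.1 and matplotlib 3.10.9. The members, marker lists and tests were chosen with earlier results of these data known. The other miRNAs named were taken by rule: those with the family seed, mir-322 and mir-503, marker lists, and the 5 most correlated with the highest 5p and 3p entries. The other hairpins with a changed arm ratio at 1 ppm, mir-30d, mir-200b and mir-23b, were named after their values were seen. Alternatives covered the pseudocount, filter, scaling, isomiRs and copies, model terms and leaving out each pool, and the arm ratio with both mir-16 copies was added after the data were seen. The p-values measure the spread between pools, which holds no spread between exposure runs of an O3 concentration.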

Additional observations from a re-analysis of the deposited data

How the results depend on the processing

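The 26 entries, with 3 pools per exposure, leave wide intervals, and the 2 ppm pools had the fewest reads. No paired analysis was possible because the labels give the exposures no shared replicate numbers. All alternatives for shifted isomiRs were not run, since no family arm had enough of them. With the filter at 200 RPMMM, mir-16-1-3p was not tested and 0 family entries were DE at 1 ppm. At 2 ppm compared with FA, 1 family entry (mir-16-1-3p) was DE with a pseudocount of 10, with zeros set to the lowest value, with isomiRs added, without a variance trend and with 2 exposures fitted, and 0 to 1 when a pool was left out (mir-16-1-3p without 1 ppm pool 1 or 3, mir-15b-5p without FA pool 3 or 2 ppm pool 2). Between 2 and 1 ppm, 1 entry (mir-16-1-3p) was DE with a pseudocount of 10, zeros set to the lowest value, no variance trend, median-of-ratios scaling and either total without mir-2137, and 0 to 1 with a pool left out (1 without 1 ppm pool 1). Of all entries, 61, 201 and 155 were DE in the 3 comparisons (1 ppm and 2 ppm compared with FA, 2 ppm with 1 ppm). These were 16, 110 and 75 with isomiRs added to their arm and 13, 87 and 57 for mature miRNAs only, which test fewer entries. At 2 ppm the counts were 121 and 82 with median-of-ratios scaling and 126 and 85 with the total without mir-2137 and 4 hairpins, and 102 to 146 between 2 and 1 ppm with a pool left out, lowest without 1 ppm pool 3. Of the 201 DE entries at 2 ppm, 66 were higher and 135 lower, against 87 and 34 with median-of-ratios scaling, which moved the median of all entries from -0.83 to -0.09, 98 and 28 without mir-2137 and 4 hairpins, and 76 and 97 without mir-2137. Between 2 and 1 ppm, 52 were higher and 103 lower, against 75 and 7, 77 and 8, and 57 and 55. Hairpins with a changed arm ratio, 4 in each comparison, were 2, 13 and 5 with a filter at 20 RPMMM and 2 in each without a variance trend, and 7 at 1 ppm with a pseudocount of 10, and leaving out a pool gave 0 to 5, 1 to 5 and 1 to 7. The arm ratio of mir-16-1 at 1 ppm kept its size but lost its call with the filter at 20 RPMMM (-2.66) and with pools left out gave -2.99 to -2.20. Some log2 fold changes turned sign. With median-of-ratios scaling, 2 ppm against 1 ppm gave 0.17 (mir-15a-5p), 0.16 (mir-15b-5p), 0.0668 (mir-16-1-5p) and 0.0211 (mir-16-2-5p), and 2 ppm against FA 0.41 and 0.36 for the copies of miR-16-5p. With the total without mir-2137 and 4 hairpins these were 0.30, 0.29, 0.20, 0.15, 0.57 and 0.52, and mir-16-1-5p was at 0.0228 against FA without mir-2137. With a pool left out, mir-15a-5p ran from -0.22 (without FA pool 2) to 0.49 at 2 ppm compared with FA, and from -0.84 to 0.13 (without 1 ppm pool 1) between 2 and 1 ppm. The summed family level with copies averaged was 2716, 2642 and 1862 RPMMM in FA, 1 ppm and 2 ppm, and it was 3623, 4060 and 4275 RPMMM with median-of-ratios scaling and, after O3, 4992 and 5765 RPMMM with the total without mir-2137 and 4 hairpins. The causes were not tested.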
